A study of Mus musculus with 25 samples.

Results

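The 10 genes described here build or serve the MHC class II pathway: H2-Aa, H2-Ab1, H2-Eb1, Cd74, Ciita, H2-DMa, H2-DMb1, H2-DMb2, H2-Oa and H2-Ob. They were taken by symbol from the 30524 genes that the 5 deposited tables list, and all 10 were found in every table. In the coordinates the tables list (build GRCm39, per the submitters' processing notes), 8 of them lie on chromosome 17 between 34311314 (the start of H2-Oa) and 34535648 (the end of H2-Eb1), Ciita lies on chromosome 16 and Cd74 on another chromosome. MHC class II molecules carry peptides from proteins taken up by a cell to its surface, where CD4 T cells read them. B cells, dendritic cells and macrophages carry them, and in liver the macrophages of the sinusoids and incoming monocyte-derived cells are usual carriers, whereas hepatocytes carry little at rest. In each molecule an alpha and a beta chain pair in the endoplasmic reticulum with the invariant chain Cd74, which H2-DM later helps to replace with peptide, and H2-O holds H2-DM back.

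The study measured RNA of whole liver from C3H/HeJ mice, a strain prone to liver cancer, labelled as males that were 5 weeks old on receipt, with 1 library per mouse according to the titles. In the Untreated group (5 libraries) the mice received saline injections in place of the carcinogen and later the drug vehicles. In the DEN group (6 libraries) diethylnitrosamine, an alkylating liver carcinogen, was injected at 25 mg/kg in 5 cycles over 4 months, followed by a month of rest and then the vehicles for 3 weeks. The DEN_CAF group (5 libraries) had the same carcinogen course and then caffeine at 50 mg/kg, 3 times a week for 3 weeks. The DEN_SOR group (4 libraries) had the carcinogen and then sorafenib, a multikinase inhibitor used against liver cancer, at 30 mg/kg, 2 times a week for 3 weeks. The DEN_CAF_SOR group (5 libraries) had the carcinogen and then both drugs on those schedules. The carcinogen is thus common to every group but Untreated, and the tissue was taken as liver, with no tumour nodules set apart in the labels. In bulk tissue, fewer cells that carry a transcript and less of it per cell cannot be told apart.

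Between 14750278 and 21992613 reads per library were assigned to genes. The 6 hepatocyte markers looked up (Alb, Ttr, Apoa1, Serpina1a, Cps1 and Tat) summed to between 24436 and 88964 FPKM in every library. Xist, an RNA of female cells, had over 1000 reads in 3 of the 5 Untreated libraries (numbers 3, 4 and 5) although the mice are labelled as males. The counts of class II genes called against Untreated are therefore given with and without these 3. Other results that involve Untreated include these 3 unless stated otherwise. Ddx3y, a gene of the Y chromosome, had 30 to 84 reads in these 3 libraries and 132 in DEN 4, which had 2 Xist reads, against 914 to 1689 in the others. Mitochondrial reads made up 34.8% of DEN_SOR 4 and 33.4% of DEN 3, against 5.65% in DEN_CAF_SOR 1. Libraries numbered 3 and 4 held the higher mitochondrial shares in most groups, so some differences are also given within those libraries and within the others. Untreated 3 and Untreated 4 both bear Xist, whereas Untreated 1 and Untreated 2 do not. In comparisons with Untreated this split therefore cannot be told apart from the Xist signal, and each group has few libraries in it.

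The class II genes share a promoter design known as the X and Y boxes, read by RFX and NF-Y factors, on which the coactivator Ciita acts. The stretch from 130 to 21 bases before the gene start (110 bases, strand of the gene, 5′ to 3′) is shown for the 6 members in which the Y box core TGATTGG was found, because these letters are what their promoters have in common. Sequences are RefSeq's for GRCm38.p6, which is the C57BL/6 genome and not the genome of the strain studied, and windows were found for 7 of the 10 members. Capitals mark the Y core TGATTGG and, where it stood upstream, the X core AGNAAC.
H2-Eb1: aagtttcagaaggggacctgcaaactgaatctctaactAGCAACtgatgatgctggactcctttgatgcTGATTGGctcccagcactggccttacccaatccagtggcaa
H2-Aa: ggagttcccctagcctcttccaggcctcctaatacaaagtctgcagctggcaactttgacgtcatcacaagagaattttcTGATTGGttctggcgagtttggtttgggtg
H2-DMb1: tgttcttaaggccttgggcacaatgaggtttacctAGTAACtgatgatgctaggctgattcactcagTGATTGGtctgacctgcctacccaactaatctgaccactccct
H2-DMb2: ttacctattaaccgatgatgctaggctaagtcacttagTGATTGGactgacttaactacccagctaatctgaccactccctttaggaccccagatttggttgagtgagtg
H2-Oa: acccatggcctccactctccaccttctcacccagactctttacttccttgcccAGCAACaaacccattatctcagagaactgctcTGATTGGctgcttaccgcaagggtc
H2-Ob: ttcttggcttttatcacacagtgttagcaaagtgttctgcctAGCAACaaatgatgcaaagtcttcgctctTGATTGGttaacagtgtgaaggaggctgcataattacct

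These windows lie at chr17:34305737-34305846 for H2-Eb1 (plus strand), chr17:34287844-34287953 for H2-Aa (minus strand) and chr17:34153061-34153170 for H2-DMb1 (plus strand). Those of H2-DMb2, H2-Oa and H2-Ob lie at chr17:34145119-34145228, chr17:34092249-34092358 and chr17:34238775-34238884, all on the plus strand. In 4 of them (H2-Eb1, H2-DMb1, H2-Oa and H2-Ob) an X core began 29 to 32 bases before the start of the Y core. On both strands of the 250 bases before each gene start, TGATTGG occurred in 7.23% of 32851 windows and AGNAAC, which is short and common, in 42.3%. An X core followed on the same strand by a Y core, with 10 to 40 bases between the 2 cores, occurred in 0.262% of windows. The pair of motifs cannot overlap at that spacing. The motifs were chosen after these promoters had been read, and a match is a description of letters, not of binding. H2-DMa had 2 windows, and neither held TGATTGG. H2-Ab1, Cd74 and Ciita had no window in the table.

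Levels are given as FPKM, reads scaled to the library total and to the listed gene length in the usual way, computed from the reads behind the deposited values. The library total includes mitochondrial reads, so a high mitochondrial share, as in DEN_SOR 4 and DEN 3, lowers the FPKM of all other genes. Cd74 was the most abundant member, with a median of 36.1 FPKM over 25 libraries (range 13.0 to 140). H2-Eb1 followed at a median of 8.20 and H2-Aa at 5.43, and both were at 1 FPKM or more in all 25 libraries. The order of these 2 depends on the length used: with the principal transcript as the length, the median (scaled like FPKM) was 18.3 for H2-Aa and 9.55 for H2-Eb1, with Cd74 still highest at 42.9. H2-DMa (1.01), H2-Ab1 (0.887) and H2-DMb2 (0.760) formed a lower tier whose ranges overlapped, and H2-DMb1 (0.422), Ciita (0.318), H2-Ob (0.249) and H2-Oa (0.225) were lowest. A filter on low values (1 FPKM reached in 4 libraries or more) left 12741 genes for the test, 6 of the 10 members among them: H2-Aa, H2-Ab1, H2-Eb1, Cd74, H2-DMa and H2-DMb2. Ciita, H2-Oa and H2-Ob reached 1 FPKM in no library and H2-DMb1 in 3, so these 4 were too low for that test. H2-Ab1, H2-DMa and H2-DMb2 reached 1 FPKM in no Untreated library and so passed through the other groups, which favours positive differences from Untreated among the tested members.

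**Figure D1:**
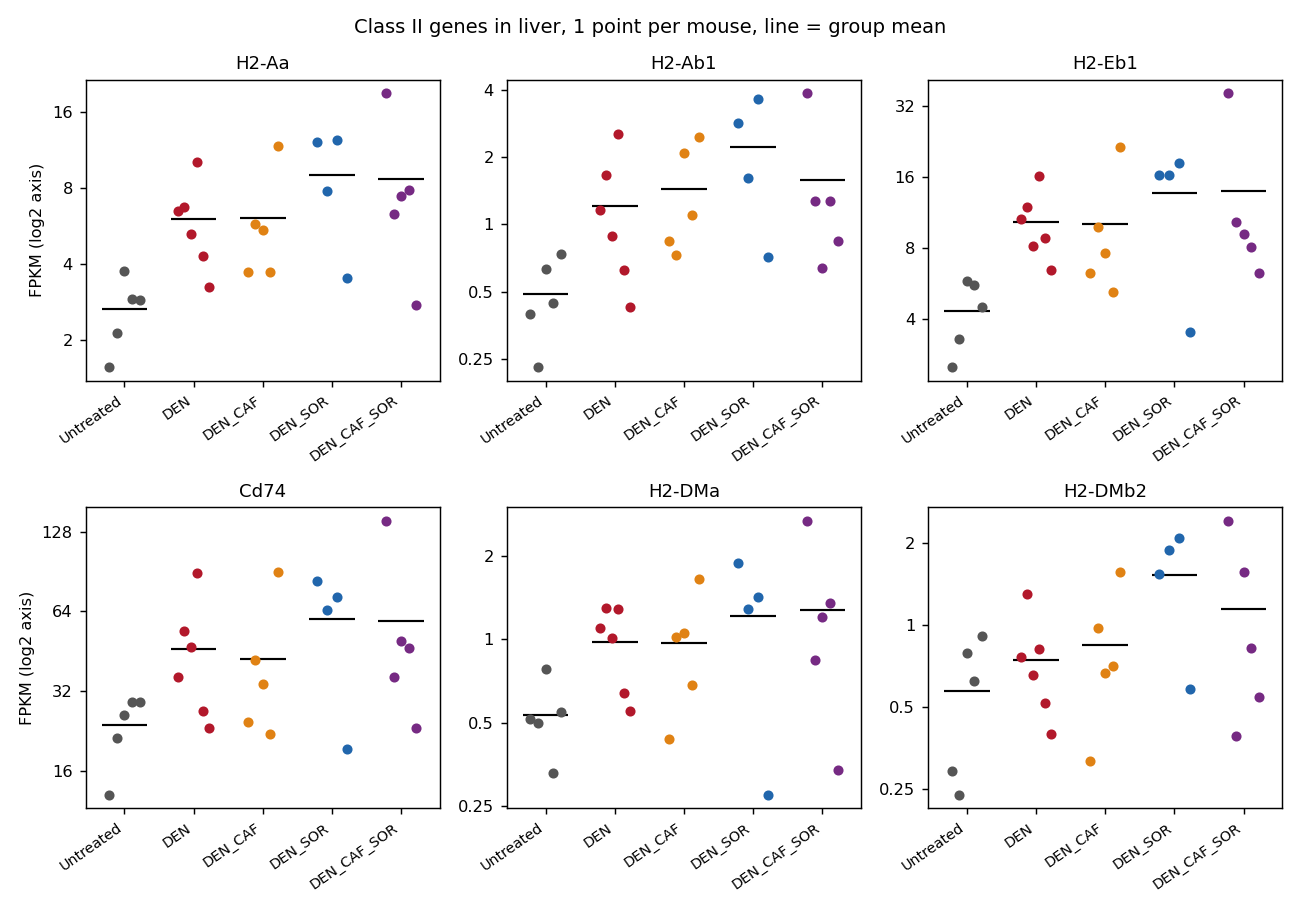
FPKM (log2 axis) of the 6 tested class II genes in 25 mouse livers, by group. Each point is 1 mouse and each line a group mean. Untreated points lie lowest on average in every panel, DEN_CAF_SOR 1 is the highest point of all 25 in every panel, and DEN_SOR 4 lies below the other 3 DEN_SOR points in every panel.

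The alpha and beta chain genes come first. H2-Aa encodes the alpha chain of I-A, the class II molecule that all common mouse strains carry. In the Untreated group it stood at 1.56, 2.12, 3.75, 2.90 and 2.88 FPKM in libraries 1 to 5. In DEN it ran from 3.25 over a median of 5.86 to 10.2 FPKM in 6 libraries. Of these 6 only DEN 6, at 3.25, fell inside the Untreated range. H2-Aa stood at 3.73, 5.77, 5.43, 3.70 and 11.7 FPKM in DEN_CAF 1 to 5, with library 5 at over 2 times any other of that group and libraries 1 and 4 inside the Untreated range. DEN_SOR had 12.1, 7.78, 12.4 and 3.50 FPKM, and DEN_CAF_SOR had 19.0, 6.32, 7.46, 7.82 and 2.74 FPKM. Both sorafenib groups thus had 1 library within the Untreated range and all others above it.

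H2-Eb1 encodes the beta chain of I-E. It stood at 2.52, 3.29, 5.79, 5.59 and 4.51 FPKM in Untreated 1 to 5, and in DEN it ran from 6.49 over a median of 9.73 to 16.1 FPKM. DEN_CAF had 6.29, 9.85, 7.65, 5.24 and 21.5 FPKM. The lowest of these, DEN_CAF 4, fell within the Untreated range. DEN_SOR had 16.3, 16.3, 18.4 and 3.56 FPKM, so that 3 libraries lay close together and DEN_SOR 4 lay in the Untreated range. DEN_CAF_SOR had 36.1, 10.4, 9.20, 8.09 and 6.27 FPKM. H2-Eb1 was the only tested member with every library of a carcinogen group above every Untreated library: this held in DEN (as for 2.60% of all genes tested) and in DEN_CAF_SOR (3.12%). In DEN_CAF and DEN_SOR it held for 0 of 6 members, against 4.12% and 4.29% of all genes tested.

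H2-Ab1 encodes the beta chain that pairs with H2-Aa. It was low, at 0.396, 0.231, 0.633, 0.444 and 0.734 FPKM in Untreated 1 to 5 and from 0.426 over a median of 1.02 to 2.53 FPKM in DEN. DEN_SOR had 2.85, 1.62, 3.65 and 0.713 FPKM, and DEN_CAF and DEN_CAF_SOR ran from 0.730 to 2.46 and from 0.639 to 3.85. The partner chains were far apart in level: H2-Aa was 2.61 to 11.7 times H2-Ab1 in FPKM over the 25 libraries (median 4.91). Per length of the principal transcript, the median ratio was 7.80. C3H mice carry the k form of these genes, whereas the reference genome holds the b form of C57BL/6; how many reads of each gene were lost for mismatches was not tested.

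H2-Ea encodes the alpha chain that pairs with H2-Eb1 and is not 1 of the 10 genes; it is silent in C57BL/6 but not in strains of the k form. It stood between 6.11 and 15.9 FPKM in Untreated, 12.2 and 38.5 in DEN, 9.44 and 52.3 in DEN_CAF, 14.8 and 49.0 in DEN_SOR and 12.9 and 65.5 in DEN_CAF_SOR. Its FPKM was 1.62 to 4.16 times that of H2-Eb1 (median 2.39), and per length of the principal transcript the median ratio was 1.36. H2-Eb2, a further beta chain gene, had 0 to 3 reads per library. The H2-Ea difference between DEN and Untreated was 1.06 ± 0.40 on the log2 scale (SE, limma adjusted p = 0.176).

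Cd74, the invariant chain that blocks the peptide groove until the endosome, stood at 13.0, 21.3, 26.1, 29.1 and 29.2 FPKM in Untreated 1 to 5. In DEN it ran from 23.1 over a median of 41.6 to 89.4 FPKM, with DEN 5 and DEN 6 inside the Untreated range and DEN 4 highest. DEN_CAF had 24.4, 41.8, 33.96, 22.035 and 89.8 FPKM. In DEN_SOR the values were 83.1, 64.8, 72.5 and 19.3 FPKM, and in DEN_CAF_SOR 140, 36.1, 49.3, 46.6 and 23.2. Every group thus overlapped the Untreated range in Cd74, through 1 or 2 libraries each. Cd74 was 5.51 to 10.1 times H2-Aa in FPKM, with medians of 10.03 in Untreated and 7.59, 6.54, 6.34 and 6.60 in DEN, DEN_CAF, DEN_SOR and DEN_CAF_SOR. Per length of the principal transcript the median ratio was 2.52 over 25 libraries, against 7.12 in FPKM.

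H2-DMa and the H2-DMb genes encode the chains of H2-DM, which exchanges the Cd74 fragment for peptide. H2-DMa stood at 0.516, 0.499, 0.780, 0.330 and 0.547 FPKM in Untreated 1 to 5 and from 0.552 over a median of 1.05 to 1.30 in DEN. It ran from 0.438 to 1.65 in DEN_CAF, from 0.275 to 1.88 in DEN_SOR and from 0.339 to 2.66 in DEN_CAF_SOR, so that DEN_SOR reached both below and above all Untreated libraries. H2-DMb2 stood at 0.291, 0.238, 0.787, 0.623 and 0.905 FPKM in Untreated 1 to 5, and DEN ran from 0.396 to 1.30, with only DEN 2 above that range. The DEN_SOR values of H2-DMb2 were 1.54, 1.88, 2.07 and 0.582 FPKM, so 3 of 4 were above every Untreated library and above every DEN library. H2-DMb1 and H2-DMb2 are near copies: 27.2% of the 50-base stretches of the H2-DMb1 principal transcript occur in that of H2-DMb2, and 26.8% the other way round, so the split of reads between them is uncertain. No other pair of the 10 genes shared such a stretch.

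**Figure D2:**
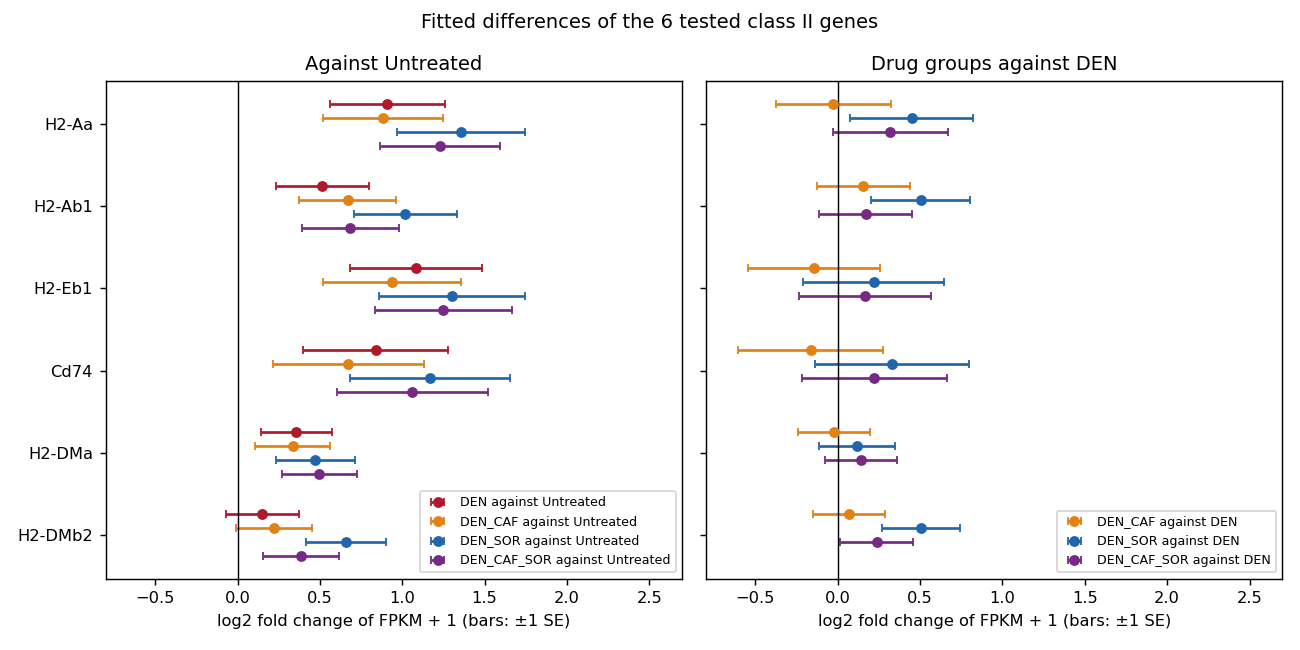
Fitted log2 fold changes of FPKM + 1 for the 6 tested class II genes, with bars of 1 SE, for the carcinogen groups against Untreated (left) and the drug groups against DEN (right). All 24 points on the left lie above 0, while those on the right lie from -0.16 to 0.51 with bars that mostly cross 0.

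The first question of the design is whether the carcinogen course changed these genes. Against Untreated, all 6 tested members had a positive difference in DEN, from 0.15 for H2-DMb2 to 1.08 for H2-Eb1, with a median of 0.68, against 0.03 for all genes tested. With no filter on low values, 9 of 10 members were positive with a median of 0.25, against 0.03 for all genes. None passed the test: 0 of 6 members were called by limma at an adjusted p under 0.05, where 2.04% of all genes tested were called. At an unadjusted p under 0.05 there were 2 of 6 (H2-Aa and H2-Eb1), against 16.5% of all genes. H2-Eb1 differed by 1.08 ± 0.40 (SE, n = 6 and 5, limma adjusted p = 0.164) and H2-Aa by 0.91 ± 0.35 (limma adjusted p = 0.182). Cd74 differed by 0.84 ± 0.44 (limma adjusted p = 0.354), H2-Ab1 by 0.52 ± 0.28 (0.379), H2-DMa by 0.36 ± 0.22 (0.436) and H2-DMb2 by 0.15 ± 0.22 (0.796). On the reads, edgeR called 0 of 6 and 2.63% of all genes higher. DESeq2 called 2 of 6, H2-Aa (adjusted p = 0.0246) and H2-Eb1 (adjusted p = 0.0270), and 5.02% of all genes higher. With the 3 Xist-bearing Untreated libraries left out and 2 kept, H2-Eb1 differed by 1.497 (limma adjusted p = 0.280) and H2-Aa by 1.25 (0.302), with 0 of 6 called and 0.165% of all genes higher. Cd74, at 1.27 without them, and H2-DMb2, at 0.44, moved by over 1.5 times. Without DEN 4, the library low in Ddx3y and high in Cd74, Cd74 differed by 0.62 (limma adjusted p = 0.600). H2-DMb2 stood at 0.067 without DEN 2, 0.071 without Untreated 2 and 0.087 without Untreated 1. Within libraries numbered 3 and 4 the difference of H2-Eb1 was 0.91 and within the others 1.23.

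The 4 low members were compared between DEN and Untreated by an exact permutation test of mean log2(FPKM + 1), two-sided, whose smallest possible p is 0.004329. Ciita, the coactivator on which transcription of class II genes depends, stood at 0.113, 0.124, 0.361, 0.223 and 0.102 FPKM in Untreated and from 0.139 over a median of 0.277 to 0.452 in DEN. The ranges overlapped, and the difference of 0.11 gave an exact permutation p = 0.195 (0.779 adjusted over 4 genes). For H2-DMb1 the difference was 0.08 (exact permutation p = 0.558) and for H2-Oa 0.05 (exact permutation p = 0.753). H2-Ob differed by -0.04 (exact permutation p = 0.801), and the adjusted value was 0.801 for each of these 3. These genes rest on few reads: 0 to 19 per library for H2-Oa, 2 to 78 for H2-Ob, 3 to 71 for H2-DMb1 and 11 to 110 for Ciita. H2-Oa had 0 reads in Untreated 2, and 3 reads, the floor that a count of 0 allows, correspond to at most 0.145 FPKM in any library.

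**Figure D3:**
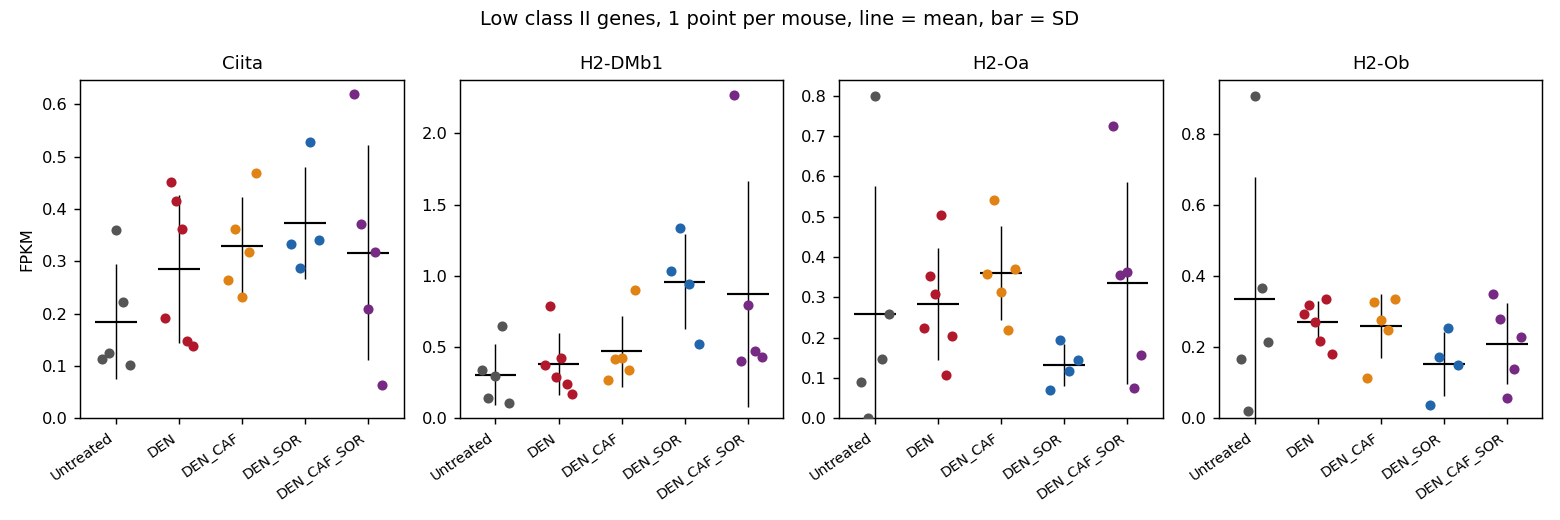
FPKM of the 4 class II genes too low for the test across genes, by group. Points are mice, lines are means and bars are 1 SD. Untreated 3 is the highest point of H2-Oa and H2-Ob, and DEN_CAF_SOR 1 that of Ciita and H2-DMb1.

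H2-Oa and H2-Ob, whose product restrains H2-DM and is typical of B cells, followed another order of groups. H2-Ob stood at 0.166, 0.0220, 0.907, 0.366 and 0.215 FPKM in Untreated 1 to 5, and its DEN_SOR values were 0.0370, 0.173, 0.255 and 0.151. H2-Oa stood at 0.0904, 0, 0.800, 0.147 and 0.259 FPKM in Untreated and at 0.0707, 0.194, 0.117 and 0.145 in DEN_SOR. Untreated 3 was the highest of all 25 libraries in both genes, and the DEN_SOR means (0.154 for H2-Ob and 0.132 for H2-Oa) were the lowest of the 5 groups. H2-DMb1 had its lowest group mean in Untreated, at 0.307 ± 0.214 FPKM (SD, n = 5), and its highest in DEN_SOR, at 0.960 ± 0.334 (SD, n = 4). Ciita likewise was lowest in Untreated, at 0.185 ± 0.110 FPKM (SD, n = 5), and highest in DEN_SOR, at 0.373 ± 0.107 (SD, n = 4).

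In DEN_CAF all 6 tested members also lay above Untreated, by 0.22 to 0.94 with a median of 0.67, against 0.04 for all genes tested (9 of 10 positive and a median of 0.28 with no filter). Limma called 0 of 6, where 1.01% of all genes were called, and 3 of 6 had an unadjusted p under 0.05, against 12.3% of all genes. edgeR and DESeq2 also called 0 of 6, where they called 1.07% and 2.16% of all genes higher. The lowest limma adjusted p was that of H2-Aa, 0.304, at a difference of 0.88 ± 0.37. Without DEN_CAF 5 the difference of H2-Eb1 fell from 0.94 to 0.64, that of Cd74 from 0.67 to 0.36 and that of H2-DMb2 from 0.22 to 0.09. With the Xist-bearing libraries left out, the difference of Cd74 was 1.11 and that of H2-DMb2 0.51, each above 1.5 times the value with them, and 0 of 6 were called (0.141% of all genes higher). Within libraries numbered 3 and 4 that of H2-Eb1 was 0.13, and within the others 1.47.

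DEN_SOR had the largest median difference from Untreated, 1.09, against -0.0025 for all genes tested (8 of 10 positive and a median of 0.62 with no filter). H2-Aa differed by 1.36 ± 0.39 (SE, n = 4 and 5, limma adjusted p = 0.0598), H2-Eb1 by 1.30 ± 0.44 (0.107), Cd74 by 1.17 ± 0.49 (0.191) and H2-Ab1 by 1.02 ± 0.31 (0.0786). H2-DMb2 differed by 0.66 ± 0.25 (0.139) and H2-DMa by 0.47 ± 0.24 (0.294). Limma called 0 of 6, where 2.62% of all genes were called, and 5 of 6 had an unadjusted p under 0.05, against 18.6% of all genes. Here the call rested on the method and on single libraries. edgeR and DESeq2 each called H2-Aa, H2-Ab1 and H2-Eb1 higher (edgeR adjusted p = 0.0220, 0.0297 and 0.0452), where edgeR called 2.68% and DESeq2 5.72% of all genes higher. Without DEN_SOR 4, limma called the same 3 genes (adjusted p = 0.0187, 0.0269 and 0.0198) and 2.60% of all genes higher, and H2-DMa differed by 0.72. DEN_SOR 4 had the largest mitochondrial share and low sums for most marker lists. With the Xist-bearing libraries left out, H2-Aa differed by 1.69 (limma adjusted p = 0.174), and 0 of 6 were called (0.220% of all genes higher). Within libraries numbered 3 and 4 H2-Aa differed by 0.85, and within the others by 1.77.

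DEN_CAF_SOR differed from Untreated by 0.39 to 1.25, all 6 positive, with a median of 0.87, against 0.03 for all genes tested (9 of 10 positive and a median of 0.47 with no filter). Limma called 0 of 6, where 0.494% of all genes were called, and 5 of 6 had an unadjusted p under 0.05, against 11.5% of all genes. H2-Eb1 differed by 1.25 ± 0.42 (limma adjusted p = 0.211) and H2-Aa by 1.23 ± 0.37 (limma adjusted p = 0.140). edgeR called H2-Aa (adjusted p = 0.0398), and DESeq2 called H2-Aa, H2-Ab1 and H2-Eb1 (adjusted p = 0.00254, 0.0473 and 0.00740), where edgeR called 0.706% and DESeq2 1.81% of all genes higher. Library DEN_CAF_SOR 1 was the highest of all 25 for each tested member. Without it the difference of Cd74 fell from 1.06 to 0.68, that of H2-Ab1 from 0.69 to 0.43, that of H2-DMa from 0.50 to 0.31 and that of H2-DMb2 from 0.39 to 0.20. With the Xist-bearing libraries left out, H2-DMb2 differed by 0.68, and 0 of 6 were called (0.0392% of all genes higher). The 4 comparisons share the Untreated libraries, so their common sign is not 4 independent results.

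The second question is whether the drugs changed these genes in livers that had received the carcinogen. The differences of DEN_CAF from DEN ran from -0.16 to 0.15, with 2 of 6 positive. Limma called 0 of 6, where 0.00785% of all genes were called, and 0 of 6 had an unadjusted p under 0.05, against 2.81% of all genes. edgeR and DESeq2 called 0 of 6, with 0.00785% and 0.0785% of all genes. Without DEN_CAF 5, Cd74 stood at -0.48 and H2-Eb1 at -0.44, and without DEN 4 Cd74 stood at 0.053. For H2-Aa the difference was -0.03 ± 0.35, and 2 SE on each side reach from -0.73 to 0.67. With sorafenib all 6 differences from DEN were positive, from 0.12 for H2-DMa to 0.51 for H2-DMb2 (0.51 ± 0.24, limma adjusted p = 0.793), with a median of 0.39, against -0.02 for all genes tested. Limma called 0 of 6 and 0% of all genes, and 1 of 6 had an unadjusted p under 0.05 (H2-DMb2), against 6.19% of all genes. edgeR and DESeq2 called 0 of 6, with 0% and 0.243% of all genes. For H2-Aa the difference of 0.45 ± 0.37 has 2 SE from -0.30 to 1.19. Within libraries numbered 3 and 4, 4 of these 6 differences were negative (H2-Aa -0.10, H2-Eb1 -0.42, Cd74 -0.77 and H2-DMa -0.29), whereas within the others all 6 were positive (Cd74 1.12, H2-Aa 0.84). Single libraries moved them both ways. Without DEN_SOR 4 they ran from 0.36 to 0.80. Without DEN_SOR 3, H2-Eb1 stood at 0.016, H2-Aa at 0.26 and H2-Ab1 at 0.29, and without DEN_SOR 1, Cd74 stood at 0.11 and H2-DMa at -0.031.

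Both drugs together gave differences from DEN of 0.14 to 0.32, all 6 positive, with 0 of 6 called and 0% of all genes. Without DEN_CAF_SOR 1, 4 of them were negative (H2-Eb1 -0.23, Cd74 -0.15, H2-Ab1 -0.087 and H2-DMa -0.050). DEN_SOR against DEN_CAF gave 0.14 to 0.49, DEN_CAF_SOR against DEN_CAF 0.02 to 0.39 and DEN_CAF_SOR against DEN_SOR -0.33 to 0.02, again with 0 of 6 called and 0% of all genes in each. The caffeine by sorafenib interaction ran from -0.49 for H2-Ab1 (± 0.42) to 0.09 for H2-Eb1 (± 0.60), with 0 of 6 called and 0% of all genes. In these 5 comparisons 0 of 6 had an unadjusted p under 0.05, against 2.72% to 3.97% of all genes. edgeR called 0 of 6 and 0% of all genes in each, and DESeq2 called 0 of 6 with 0% to 0.0864% of all genes. Over the 5 groups at once, limma called 0 of 6 (0.950% of all genes), edgeR 0 of 6 (2.17%) and DESeq2 3 of 6 (6.58%). Of the tested members 3 had an unadjusted p under 0.05, against 11.4% of all genes, and adjusted p-values ran from 0.250 to 0.727. The spread between mice of 1 group was wide: the highest H2-Aa value was 2.41 times the lowest in Untreated and 6.92 times in DEN_CAF_SOR, and the coefficient of variation of H2-Eb1 was 32.8% in Untreated and 88.9% in DEN_CAF_SOR.

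**Figure D4:**
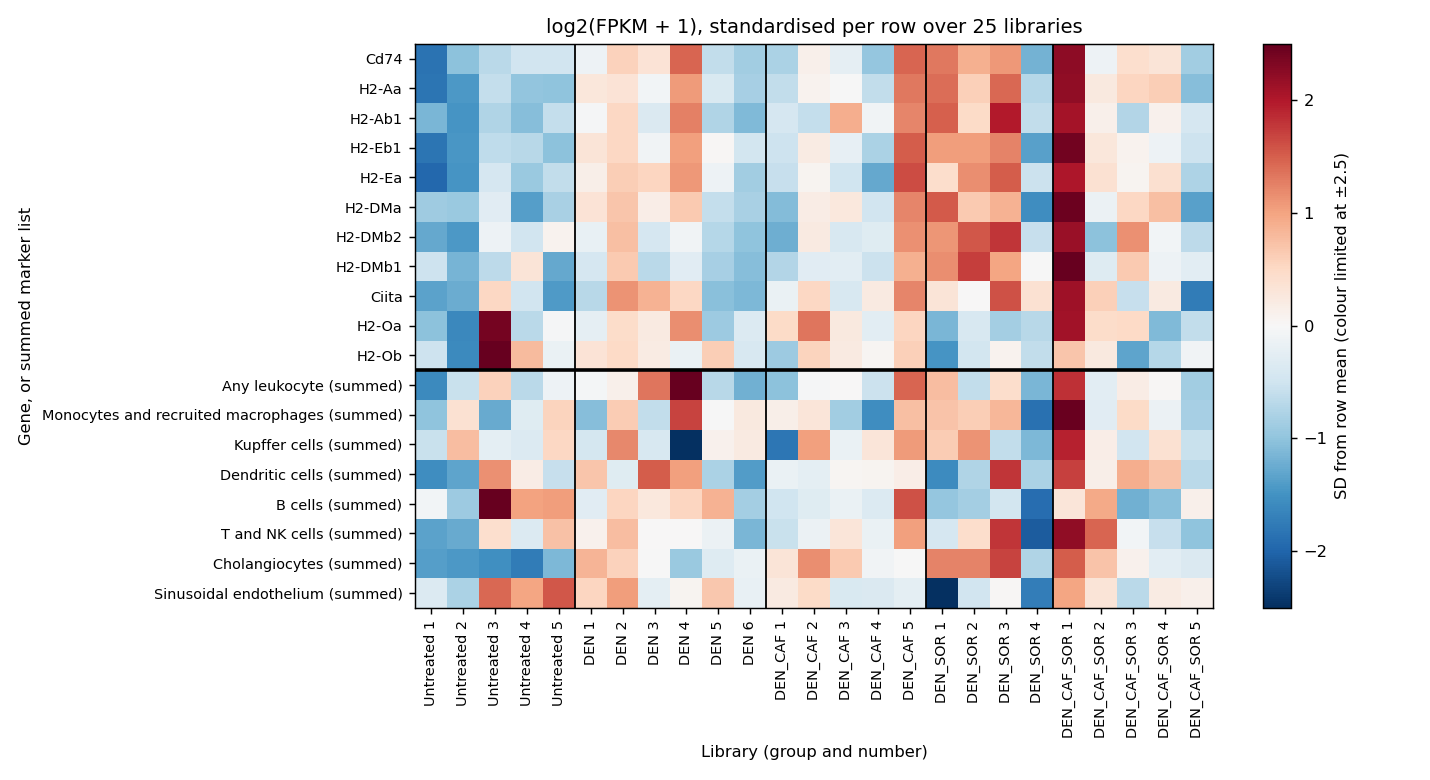
Standardised log2(FPKM + 1) of the 10 class II genes, H2-Ea and 8 summed marker lists (rows) in 25 libraries (columns, ordered by group and number), with red above and blue below the row mean. DEN 4, DEN_CAF 5, DEN_SOR 1 to 3 and DEN_CAF_SOR 1 are red across most class II rows, while H2-Oa and H2-Ob have their reddest cell in Untreated 3.

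The class II genes were high or low in the same mice, with the H2-O pair following them less closely. Over 25 libraries Pearson's r between log2 values of the 6 tested members was 0.743 to 0.954 in 15 pairs, and 0.669 to 0.957 after group means were subtracted. H2-DMb1 correlated with them at 0.716 to 0.853 and Ciita at 0.634 to 0.767. H2-Oa correlated with them at 0.257 to 0.399 and H2-Ob at 0.0324 to 0.128, and after group means were subtracted these were 0.397 to 0.529 and 0.217 to 0.378. H2-Oa and H2-Ob correlated with each other at 0.634. These values are descriptions: the points share groups, library depth and the genes' locus, and the low genes carry more counting noise.

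The genes most like the mean of the tested members over 25 libraries were H2-Ea (r = 0.930), Cyba (0.886), Capg (0.884), Plekha2 (0.874), Gyg (0.863), Clec7a (0.857), Irf8 (0.856) and Cd24a (0.853). After group means were subtracted, they were Alox5ap (0.912), H2-Ea (0.907), Cyba (0.892), Ncf1 (0.876), C1qa (0.866), Cd300c2 (0.863), Itgb2 (0.861) and Axl (0.860). Cyba and Ncf1 encode parts of the phagocyte oxidase, Clec7a a receptor for fungal glucans and C1qa a chain of complement C1q. Irf8 is a transcription factor of monocytes and dendritic cells. Of the Kupffer cell list, Cd68 and Csf1r, which other macrophages also express, were at 0.765 and 0.748, and Clec4f, a marker of resident Kupffer cells, was at 0.168. After group means were subtracted these were 0.827, 0.830 and 0.350. Stab2, a marker of sinusoidal endothelium, was at -0.439, and at -0.0899 after subtraction.

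**Figure D5:**
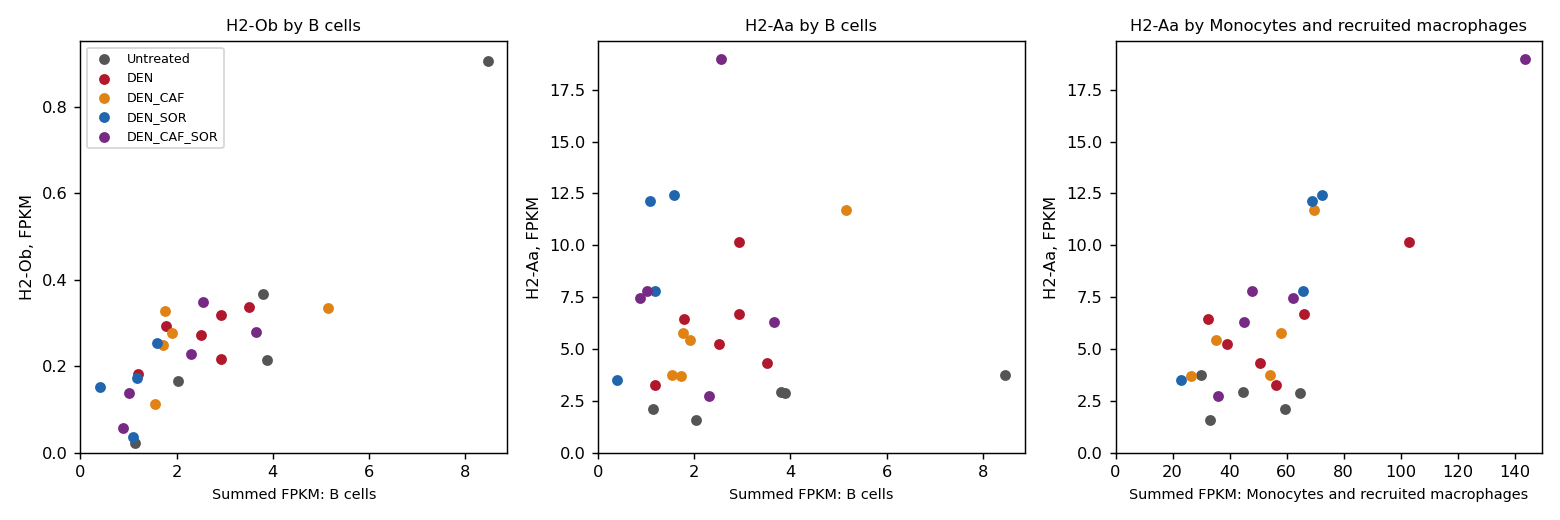
FPKM of H2-Ob (left) and H2-Aa (middle) against the summed FPKM of 8 B cell markers, and of H2-Aa against that of 8 monocyte and macrophage markers (right); each point is 1 mouse, coloured by group. H2-Ob rises with the B cell sum, H2-Aa spreads at any B cell sum, and H2-Aa rises with the monocyte and macrophage sum, which is mostly Lyz2 and Cd9.

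Markers of other cell types were summed in each library and set beside the members. The 8 B cell markers (among them Cd79a, Cd79b, Ms4a1, Cd22, Pax5, Blk and Fcmr) summed to 1.14 to 8.47 FPKM in Untreated, highest in Untreated 3. They summed to 1.19 to 3.51 in DEN, 1.55 to 5.15 in DEN_CAF, 0.402 to 1.59 in DEN_SOR and 0.881 to 3.66 in DEN_CAF_SOR, and Cd79b, Ms4a1 and Blk were each at 0 in some DEN_SOR library. H2-Ob followed this sum, with r = 0.801 and Spearman's rho = 0.777 over 25 libraries (permutation p = 1e-05 for each, the smallest that 100000 permutations can give; 0.0003 adjusted over 30 relations). Without Untreated 3 and DEN_CAF 5, the 2 libraries farthest from the median sum, r was 0.689, and it was 0.901 within libraries numbered 3 and 4 and 0.693 within the others. H2-Oa followed it more loosely, with r = 0.521 (permutation p = 0.0081, adjusted 0.027) and rho = 0.452 (permutation p = 0.025, adjusted 0.092), and r was 0.311 without the same 2 libraries. That relation rests in part on those libraries. H2-Aa had r = -0.0101 and rho = -0.0685 with the B cell sum (permutation p = 0.96 and 0.74, adjusted 0.98 and 0.82). After group means were subtracted, however, r with the B cell sum was 0.476 for H2-Aa, 0.591 for H2-Eb1, 0.523 for H2-Ab1 and 0.457 for Cd74, against 0.787 for H2-Ob and 0.551 for H2-Oa. The permutations of these marker relations shuffled libraries across all groups, so differences between groups enter their p-values.

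The 8 markers of monocytes and recruited macrophages (Ccr2, Ly6c2, Lyz2, Itgam, Cx3cr1, Gpnmb, Trem2 and Cd9) summed to 29.9 to 64.6 FPKM in Untreated and 32.5 to 103 in DEN. They summed to 26.4 to 69.7 in DEN_CAF, 23.1 to 72.4 in DEN_SOR and 35.8 to 144 in DEN_CAF_SOR. Lyz2 and Cd9 made up 91.0% to 98.6% of this sum in each library, so relations with it are in the main relations with these 2 genes. The other 6 together reached 0.574 to 5.53 FPKM, so the sum hardly shows them. From Untreated to DEN, means went from 0.250 to 0.477 FPKM for Ccr2, 0.202 to 0.754 for Cx3cr1 and 0.0241 to 0.180 for Gpnmb. They went from 0.0711 to 0.283 for Trem2, 0.185 to 0.398 for Itgam (highest value 1.84) and 0.126 to 0.0953 for Ly6c2. Of the 8 markers 3 were tested, and 0 were called in DEN against Untreated (2.04% of all genes). Ly6c2 was at 0 in some DEN_CAF and DEN_SOR library, and Gpnmb in some Untreated library. Cd74 followed this sum, with r = 0.770 (permutation p = 2e-05, adjusted 0.0003) and rho = 0.752 (permutation p = 4e-05, adjusted 0.0006). Without DEN_CAF_SOR 1 and DEN_SOR 4, r was 0.674, and it was 0.947 within libraries numbered 3 and 4 and 0.761 within the others. H2-Aa followed it with r = 0.651 (permutation p = 0.00048, adjusted 0.0029) and rho = 0.622 (permutation p = 0.0012, adjusted 0.0074), and r was 0.539 without those 2 libraries. For H2-Ob r was -0.172 and rho -0.0646 (permutation p = 0.41 and 0.76, adjusted 0.64 and 0.82). With group means subtracted, r with this sum was 0.797 for Cd74, 0.712 for H2-Aa and -0.133 for H2-Ob. With the 9 Kupffer cell markers the r of Cd74 was 0.283 and its rho 0.336 (permutation p = 0.17 and 0.10, adjusted 0.34 and 0.23). That r was -0.494 within libraries numbered 3 and 4 and 0.709 within the other 15, so the pooled value joins opposite signs. Means of genes in the Kupffer sum moved apart: from Untreated to DEN, mean C6 went from 16.9 to 42.0 FPKM and mean Clec4f from 42.0 to 26.8. The groups overlapped in each gene. C6 ran from 2.91 to 40.8 FPKM in Untreated and from 5.66 to 66.1 in DEN, and Clec4f from 28.4 to 58.8 and from 6.81 to 41.2. Of the 9 genes, 2 were positive in DEN against Untreated and 0 were called (2.04% of all genes). That Kupffer sum was lowest in DEN 4, at 40.5 FPKM, a library in which Cd74 ranked 3 of 25, and without DEN 4 and DEN_CAF 1 r was 0.583. DEN 4, DEN_CAF_SOR 1 and DEN_CAF 5 were also the libraries with the highest sums of the 4 general leukocyte markers (27.0, 20.1 and 17.3 FPKM). Dendritic cell markers summed to 2.04 to 6.37 FPKM over all libraries and T and NK cell markers to 0.498 to 5.14. How far these cell types account for the class II levels was not tested.

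Bile duct and endothelial markers moved in the same comparisons. All 4 (Krt19, Krt7, Epcam and Spp1) were called higher in DEN_SOR than in Untreated, for example Epcam by 1.99 ± 0.39 (limma adjusted p = 0.00633). With the Xist-bearing libraries left out, none of these calls was kept (Epcam at 2.02, limma adjusted p = 0.113). Their sum was 6.57 to 12.5 FPKM in Untreated and 18.3 to 188 in DEN_SOR, lowest in DEN_SOR 4. Most of this sum was Spp1, with a mean of 8.39 FPKM in Untreated and 101 in DEN_SOR, against 0.455 and 6.40 for Krt19. Of the same 4, Spp1 and Epcam were called higher in DEN_CAF and Spp1 in DEN_CAF_SOR against Untreated, and 0 of 4 in DEN. Over all genes tested, limma called 2.62% in DEN_SOR, 1.01% in DEN_CAF, 0.494% in DEN_CAF_SOR and 2.04% in DEN, each against Untreated. Of 7 markers of sinusoidal endothelium 1 was positive in DEN_SOR against Untreated, and Stab2, a scavenger receptor of these cells, was called lower, at -0.94 ± 0.24 (limma adjusted p = 0.0378). Without the Xist-bearing libraries that call was lost (-0.82, limma adjusted p = 0.290). The part of these markers in the class II differences was not tested.

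The other genes of the pathway were mostly not called, like most genes. Against Untreated, limma called 2.04% of all genes tested in DEN and 2.62% in DEN_SOR. A count of 0 called thus does not set these lists apart from all genes. Of the promoter factors Rfx5, Rfxank, Rfxap, Nfya, Nfyb, Nfyc and Creb1, which bind the X and Y boxes, 0 of 7 were called in DEN against Untreated, with 1 of 7 positive and a median of -0.08. Rfx5 was at -0.27 ± 0.19 (limma adjusted p = 0.517) there and at -0.39 ± 0.21 (0.326) in DEN_SOR. Of 12 genes on the route from interferon gamma, the main inducer of Ciita, 10 were tested and 0 were called in DEN, with 8 positive and a median of 0.15. Ifng itself was too low for the test. Cxcl9, a chemokine gene induced by interferon gamma, was at 0.78 ± 0.35 in DEN (limma adjusted p = 0.253) and 0.95 ± 0.38 in DEN_SOR (0.177).

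Of 8 genes that process proteins and Cd74 in endosomes, 0 were called in DEN or DEN_SOR against Untreated, with 6 and 5 positive. In DEN_CAF_SOR all 8 were positive with a median of 0.24 and 0 were called. Ctss, the protease that trims Cd74, was at 0.16 ± 0.47 in DEN (limma adjusted p = 0.908), although its level followed the class II mean from mouse to mouse (r = 0.758, and 0.838 after group means were subtracted). Among 8 genes of costimulation and T cell contact, 4 were tested, and Icosl, a ligand that supports activated T cells, was called in DEN_SOR against Untreated, at 0.73 ± 0.19 (limma adjusted p = 0.0364). Leaving out the Xist-bearing libraries ended that call (0.81, adjusted p = 0.179). Cd83, which keeps class II molecules at the surface, was at 0.41 ± 0.20 in DEN (limma adjusted p = 0.296) and at 0.61 ± 0.22 in DEN_SOR (0.127). Cd44, the signalling partner of Cd74, was at 0.36 ± 0.22 in DEN (0.425) and Mif, its ligand, at 0.23 ± 0.19 (0.613). In DEN_CAF and DEN_CAF_SOR against Untreated, and in the comparisons between drug groups and DEN, 0 genes of these 7 lists were called.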

How the data were processed

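Liver RNA of 25 mice was sequenced by the authors. Reads were aligned with HISAT2 2.0.5 to GRCm39 and counted per gene with featureCounts 1.5.0-p3, per the submitters' processing notes. Neither annotation release nor strand setting is known from those notes, which leaves antisense and overlapping genes uncertain. Although the 5 deposited files (1 for each group) carry FPKM in their names, each deposited column is a signal: whole read counts divided by 1 size factor per library (100% of values whole within 0.01 read). Whether the tables were normalised together is not known, so reads were recovered and FPKM was computed from reads, library totals and the listed gene lengths. The design assumed FPKM and that test was kept.

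Genes present in all 5 tables (24774 of 30524) that reached 1 FPKM in 4 libraries or more (12741) entered the test, limma 3.58.1 (R 4.3.3) applied to log2(FPKM + 1): 1 fit of all libraries, 1 coefficient per group, eBayes with trend, 20 residual degrees of freedom, two-sided, Benjamini-Hochberg adjustment within each comparison at 0.05. Fold changes on that scale understate changes of low genes. edgeR 4.0.16 and DESeq2 1.42.0 on the recovered reads, another pseudocount (0.1), no filter, TMM scaling, genes missing from a table as 0, a replicate block, a term for libraries 3 and 4, subsets of libraries and each library left out were alternatives. The limma step was tested on simulated data. Libraries of 1 group differed by 22.8 to 560.1 chi-square per degree of freedom (51 pairs), so none repeats another. Correlations used permutation tests (100000) that shuffled libraries without regard to group, and the low genes exact ones (scipy 1.17.1).

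The members, gene lists and tests were chosen with earlier results of these data known. All 10 members are named; of the pathway lists called genes are named, and otherwise up to 3 with the largest change. Results for some single genes of the pathway and marker lists are not reported here, although the lists' counts and sums include them.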

Additional observations from a re-analysis of the deposited data

Results flagged for a closer look

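Of 50 sets of values looked at (10 genes in 5 groups), 4 held a library far from the others of its group by Dixon's criterion; chance flags about 1 set in 20. H2-Eb1 in DEN_SOR 4 was 3.56 FPKM, against 16.3 to 18.4 in the other 3 libraries of that group. H2-Eb1 in DEN_CAF_SOR 1 was 36.1 FPKM, against 6.27 to 10.4 in the other 4. H2-DMb1 was 0.898 FPKM in DEN_CAF 5, against 0.270 to 0.426, and 2.27 FPKM in DEN_CAF_SOR 1, against 0.406 to 0.793. The H2-DMb1 values rest on 71 reads or fewer.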

How the results depend on the processing

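The number of class II genes called, 0 of 6 in each comparison, held in 431 of 444 values from the alternatives. For DEN against Untreated it became 2 with DESeq2. For DEN_SOR against Untreated it became 1 with a pseudocount of 0.1 or TMM scaling (H2-Aa) and 3 with edgeR or DESeq2, and it ran from 0 to 3 when single libraries were left out: 3 without DEN_SOR 4, 2 without DEN_CAF_SOR 1 and 1 without DEN 4, DEN_CAF 5 or DEN_CAF_SOR 5, since all libraries share 1 estimate of spread. For DEN_CAF_SOR against Untreated it became 1 with edgeR and 3 with DESeq2, and for any difference among the 5 groups 3 with DESeq2. The cause of the difference between tests was not tested.

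Signs held in all alternatives for DEN, DEN_SOR and DEN_CAF_SOR against Untreated. Within libraries numbered 3 and 4, a setting chosen after the data were seen, Cd74 (-0.0095), H2-DMb2 (-0.016) and H2-Ea (-0.17) turned in DEN_CAF against Untreated, and Cd74 (-0.77), H2-Aa (-0.10), H2-DMa (-0.29) and H2-Eb1 (-0.42) in DEN_SOR against DEN. H2-DMa in DEN_SOR against DEN turned a further time, and ran from -0.031 (without DEN_SOR 1) to 0.36 when single libraries were left out. Among the low genes, DEN minus Untreated turned for H2-DMb1 (-0.11) and H2-Oa (-0.035) within libraries 3 and 4. Leaving out single libraries gave -0.022 (Untreated 2) to 0.19 for H2-Oa and -0.13 to 0.098 (Untreated 3) for H2-Ob. H2-Ob turned to 0.090 with a pseudocount of 0.1, 0.18 without libraries 3 and 4, 0.22 without the Xist-bearing libraries and 0.23 without these and DEN 4.

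It cannot be told from these values whether the replicate numbers pair the mice. Between same-numbered libraries r ran from -0.282 to 0.535 and was over 0.1 in 25 of 46 pairs. Of 25 libraries, 8 matched their own number best, and the share that chance would give was not computed. With a replicate block, 0 of 6 genes were called in each comparison, and the median difference of DEN from Untreated was 0.82, against 0.68 without it.

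Depth limits H2-Oa, H2-Ob, H2-DMb1 and Ciita. Alignment of k alleles to a b genome was not tested.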
